A study of Mus musculus with 9 samples.

Results

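Histone genes were examined in long-term haematopoietic stem cells of mice that carried mutant Jak2, with or without loss of Ezh2. The members were the genes whose symbol in the array annotation has the form of a histone gene of the H1, H2A, H2B, H3 or H4 class, under the current names (H1f, H2ac, H2bc, H3c and H4c followed by a number) or the former Hist names. Each was measured on a probe set annotated to exactly 1 gene symbol. The rule found 29 genes of the 22180 genes on such probe sets: 8 of class H1, 6 of H2A, 8 of H2B, 0 of H3 and 7 of H4. The rule works on names, and where a gene had 2 such probe sets (H2ac21) the one with the higher mean over 9 arrays was used.

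Histones package DNA into nucleosomes: H2A, H2B, H3 and H4 form the core, and H1 is the linker histone that binds where DNA enters and leaves it. Most of these genes are replication-dependent, lie in clusters, are transcribed in S phase with the coactivator Npat, and give mRNAs that end in a stem-loop bound by Slbp in place of a poly(A) tail. Ezh2 is the catalytic subunit of Polycomb repressive complex 2, which methylates histone H3 on lysine 27, and Jak2VF is the activated kinase of myeloproliferative neoplasms.

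The series holds 9 arrays of C57BL/6 mice, with 3 biological replicates in each of 3 groups: WT (control), MxCre Jak2VF/+ (here Jak2VF) and MxCre Jak2VF/+ EZH2-/- (here Jak2VF_Ezh2KO). Mice of every group were given 5 doses of 300 µg of pI-pC at the age of 4 weeks, and marrow was taken 12 weeks after that. The stem cells were sorted as lineage-negative cells positive for Sca-1 and c-kit and negative for CD34 and CD135. MxCre is switched on by the interferon response to pI-pC and acts in blood cells and in other tissues. Whether the controls carried MxCre is not stated in the labels. There is no group with Ezh2 loss and normal Jak2, so Jak2VF_Ezh2KO was set against Jak2VF, which shares the Jak2 allele, and against WT. Both comparisons use the same Jak2VF_Ezh2KO arrays, and 2 of the 3 comparisons share each group.

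Array medians lay between 5.51 and 5.68 log2 units. Ezh2 measured 8.48, 8.81 and 8.69 on the WT arrays, 8.87, 9.09 and 8.78 on the Jak2VF arrays and 8.47, 8.08 and 8.42 on the Jak2VF_Ezh2KO arrays. Every Jak2VF_Ezh2KO array lay below every array of the other groups, with a difference of -0.59 (SE 0.16) from Jak2VF that did not pass the test (limma adjusted p = 0.411). The Ezh2 probe set covers RNA that may lie outside the deleted part, so it checks the labels only in part. Jak2 differed by 0.25 between Jak2VF and WT and by -0.46 between Jak2VF_Ezh2KO and Jak2VF (limma adjusted p = 0.539). Jak2VF_Ezh2KO replicates 1 and 2 had Y-linked signal with means of 6.66 and 6.81, against 3.64 to 4.08 on the other 7 arrays, so sex and genotype are partly mixed. Of the sort markers, Kit measured 9.43 to 10.2, Cd34 9.91 to 10.7 and Flt3 6.91 to 8.03 over the 9 arrays. All of these lay above most olfactory and vomeronasal receptor genes, although the CD34 and CD135 (Flt3) proteins were gated out.

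Of the 29 members, 23 were classed as replication-dependent only because they were not listed as germline or replication-independent. This class was not checked gene by gene. A further 5 are germline genes: H1f6, H1f7, H2ac1 and H2bc1 of testis and H1f8 of the oocyte. H1f10 is a replication-independent linker histone. In the RefSeq table, 21 members lie on chromosome 13, 5 on chromosome 3, 2 on chromosome 6 and 1 on chromosome 15. A further 37 genes with histone names, including 12 of class H3, lie only on probe sets annotated to several symbols, because copies of a class are nearly identical. They could not be named singly and are described as shared probe sets. Signal from close copies may also reach a probe set with 1 symbol, and its part was not tested.

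Promoters are shown for H2ac15, H2bc18, H4c9 and H1f5, the genes with the smallest p-values between Jak2VF_Ezh2KO and WT, so that their class elements can be seen beside their values. The sequences are from RefSeq (GRCm38.p6) and run 5' to 3' on the gene's strand from 250 bases before to 50 bases after the annotated start. They were matched by Entrez gene identifier for 27 of the 29 members. Capitals mark matches to 5 motifs searched on both strands. These are TATAAA for the TATA box, CCAAT for the CCAAT box, ATTTGCAT for the octamer of H2B promoters, AAACACA for the H1 box of linker histone genes, and GGTCCG from the H4 site bound by Hinfp. H2ac15 lies at chr13:21753863-21754162 (minus strand), H2bc18 at chr3:96269450-96269749 (plus strand), H4c9 at chr13:22041313-22041612 (minus strand) and H1f5 at chr13:21780576-21780875 (minus strand).
H2ac15: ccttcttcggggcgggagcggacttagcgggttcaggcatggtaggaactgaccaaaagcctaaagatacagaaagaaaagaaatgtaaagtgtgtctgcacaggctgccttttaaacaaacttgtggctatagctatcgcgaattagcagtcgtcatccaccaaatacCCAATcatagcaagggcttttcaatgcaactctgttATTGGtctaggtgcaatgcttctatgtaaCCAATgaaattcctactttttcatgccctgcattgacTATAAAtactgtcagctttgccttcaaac
H2bc18: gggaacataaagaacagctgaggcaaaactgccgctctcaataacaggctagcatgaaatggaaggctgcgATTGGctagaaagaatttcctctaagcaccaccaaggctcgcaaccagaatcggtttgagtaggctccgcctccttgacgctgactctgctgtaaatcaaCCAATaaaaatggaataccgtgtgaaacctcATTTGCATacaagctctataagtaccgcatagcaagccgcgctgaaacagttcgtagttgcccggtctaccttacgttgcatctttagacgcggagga
H4c9: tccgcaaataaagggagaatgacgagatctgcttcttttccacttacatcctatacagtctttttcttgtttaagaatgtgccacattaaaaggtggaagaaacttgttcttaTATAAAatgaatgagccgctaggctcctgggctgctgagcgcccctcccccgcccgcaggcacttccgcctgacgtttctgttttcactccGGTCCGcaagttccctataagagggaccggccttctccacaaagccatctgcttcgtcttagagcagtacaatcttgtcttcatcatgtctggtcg
H1f5: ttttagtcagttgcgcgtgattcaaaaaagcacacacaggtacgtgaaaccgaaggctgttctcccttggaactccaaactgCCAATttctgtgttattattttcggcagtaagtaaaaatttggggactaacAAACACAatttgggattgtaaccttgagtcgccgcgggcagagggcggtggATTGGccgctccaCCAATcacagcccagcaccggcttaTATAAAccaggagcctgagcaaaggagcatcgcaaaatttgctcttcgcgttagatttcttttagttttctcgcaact

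In the H2ac15 promoter, CCAAT stood at -81 and -16 and, on the other strand, at -45, and TATAAA at 21, counted from the annotated start as position 0. The H2bc18 promoter held the octamer at -48 after CCAAT at -79. The H4c9 promoter held GGTCCG at -46, and the H1f5 promoter held the H1 box at -117, CCAAT at -53 and TATAAA at -28. Among all 32544 distinct RefSeq promoters of this length, 13.6% held TATAAA, 37.4% CCAAT, 1.75% the octamer, 7.2% the H1 box and 8.31% GGTCCG. Among the 27 histone promoters, 16 (59.3%) held TATAAA, 20 (74.1%) CCAAT, 8 (29.6%) the octamer, 7 (25.9%) the H1 box and 7 (25.9%) GGTCCG.

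Several motifs were uneven between classes, as a description with no test. CCAAT was in 6 of 6 H2A, 7 of 7 H2B and 6 of 8 H1 promoters but in 1 of 6 H4 promoters. The octamer was in 5 of 7 H2B and 3 of 6 H2A promoters and in 0 of the H1 and H4 promoters. GGTCCG was in 5 of 6 H4 promoters, and the H1 box in 4 of 8 H1, 2 of 7 H2B and 1 of 6 H2A promoters. TATAAA was in promoters of every class: 3 of 8 in H1, 5 of 6 in H2A, 4 of 7 in H2B and 4 of 6 in H4. These counts take a match at any position. In H2A, TATAAA began after the annotated start in H2ac15 (21) and H2ac12 (15). It began before the start in H2ac1 (-32 and, on the other strand, -192), H2ac20 (-42) and H2ac21 (-30). In H2B the TATAAA matches began at -94 (H2bc1) and -10 (H2bc3) and, on the other strand, at -198 (H2bc12) and -212 (H2bc22). In H4 they began at -137 (H4c9), -128 (H4c17), -16 (H4c12) and 41 (H4c1). H2ac12 and H2bc12 lie head to head, and their windows share 277 bases, so these are not independent promoters. A match is a description of letters and not a measured binding site.

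**Figure D1:**
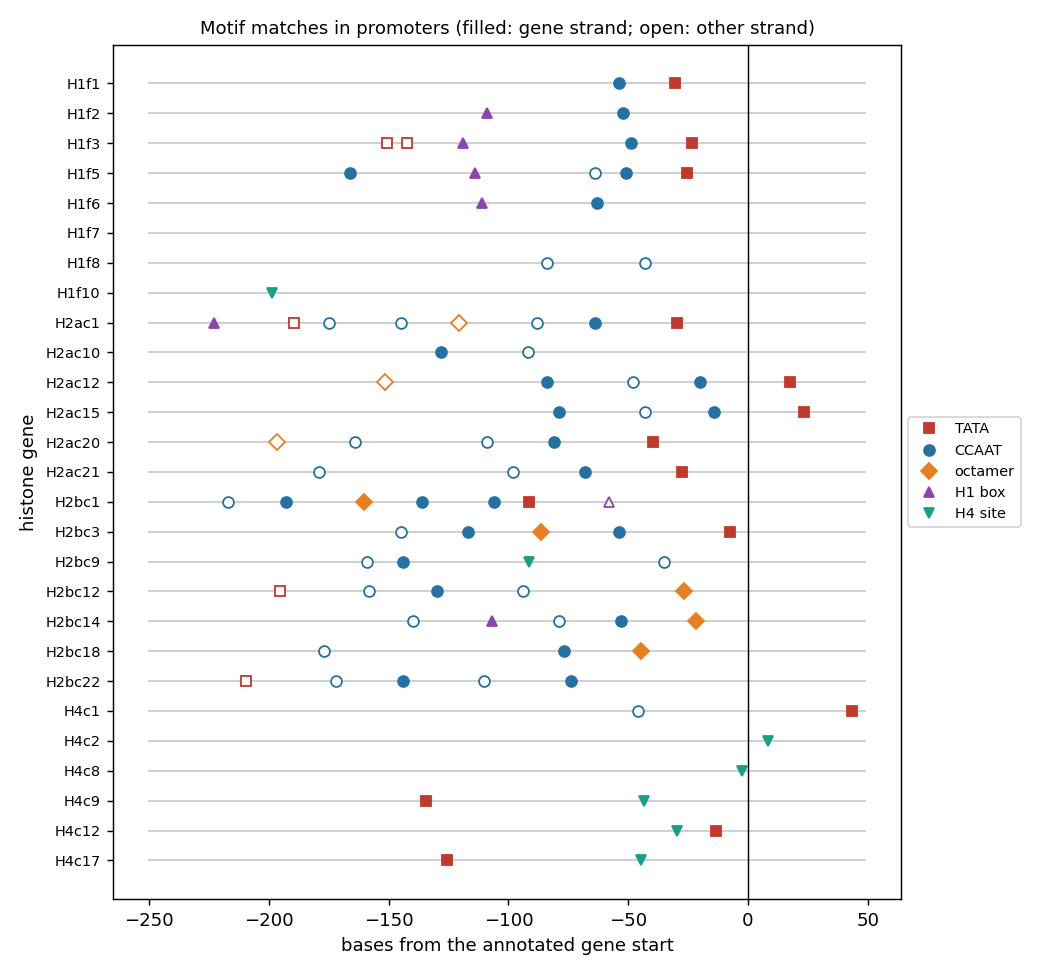
Motif matches in the 27 histone promoters, placed by the centre of each match in bases from the annotated gene start (x axis), with 1 line per gene; filled symbols are on the gene's strand and open symbols on the other. CCAAT is present in every H2A and H2B promoter, and GGTCCG in 5 of 6 H4 promoters.

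Signal levels are log2 values, and probe sets differ in affinity, so levels are compared within a gene. As a rough guide to detection, the means over 9 arrays were set against 1390 olfactory and vomeronasal receptor genes, which stem cells are not known to use. Their 95th percentile was 6.11. Above it lay 13 members and 41.7% of all genes. The 13 were H1f1, H1f2, H1f5 and H1f10, H2ac10, H2ac15, H2ac20 and H2ac21, H2bc3, H2bc12 and H2bc18, and H4c9 and H4c12. The other 16, with 0 of the 5 germline genes above that level, lay within the receptor range, where a difference may reflect little RNA.

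**Figure D2:**
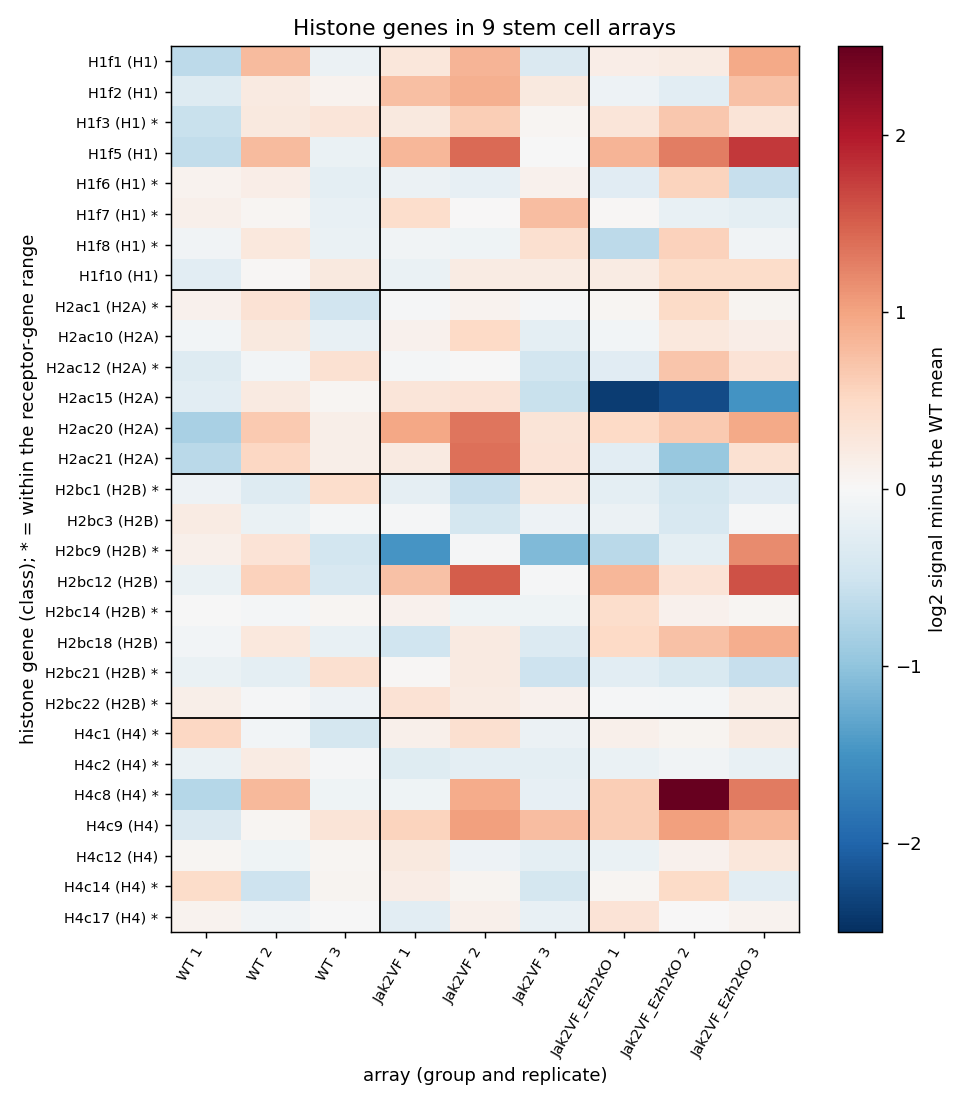
Log2 signal of each of the 29 histone genes (rows, by class) on each of the 9 arrays (columns), as the difference from the mean of the 3 WT arrays; asterisks mark genes within the receptor-gene range. H2ac15 is lower on all 3 Jak2VF_Ezh2KO arrays, while H1f5, H2bc18 and H4c9 are higher there than in WT. H4c9 is also higher than in WT on all 3 Jak2VF arrays, and H1f5 in Jak2VF overlaps both other groups.

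With Jak2VF against WT, linker histones H1f2 and H1f5, H2ac20 and H2ac21, H2bc12 and H4c9 lay higher in Jak2VF, by 0.63 to 0.88 log2 units, and H2bc9 lay 0.87 lower. None of the 29 passed the test (limma, smallest adjusted p = 0.924), nor did any of all genes (0%). At an unadjusted p under 0.05, 3 members were higher and 0 lower, against 2.85% and 1.81% of all genes. In 2 members every Jak2VF array lay above every WT array, and in 1 every array lay below, against 3.54% and 2.57% of all genes. Of the 29 differences 17 were positive and 12 negative, with a median of 0.07 beside 0.03 over all genes. Of all 22180 genes, 12377 were positive and 9803 negative. By class the medians were 0.28 in H1 (7 of 8 positive), 0.08 in H2A (5 of 6), -0.14 in H2B (2 of 8) and -0.04 in H4 (3 of 7). Among the 13 genes above the receptor level the median was 0.26.

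With Jak2VF_Ezh2KO against Jak2VF, H2ac15 lay about 4-fold lower, H2ac21 lay 0.93 log2 units lower, and H2bc18 and H2bc9 lay 0.91 and 0.96 higher. H4c8, a gene of the receptor range, lay 1.62 higher, mainly through 1 array. None of the 29 passed the test, while 10 of all genes did (0.0451%). H2ac15 came closest, with the 13th smallest p of all genes. At an unadjusted p under 0.05, 2 members were higher and 3 lower, against 2.91% and 3.99% of all genes. In 2 members all Jak2VF_Ezh2KO arrays lay above all Jak2VF arrays and in 1 below, against 4.18% and 6.94%. The median difference was 0.11, with 18 positive and 11 negative, beside -0.04 over all genes. Of all 22180 genes, 9273 were positive and 12904 negative. Class medians were 0.05 in H1, -0.09 in H2A, 0.09 in H2B and 0.11 in H4, and all 7 H4 differences were positive, the lowest at 0.02. Only 2 of these H4 genes lay above the receptor level, H4c9 at 0.04 and H4c12 at 0.11. The 13 genes above that level had a median of 0.04, and the 4 of class H2A, which include H2ac15, one of -0.55 (0 positive).

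With Jak2VF_Ezh2KO against WT, H2ac15 again lay about 4-fold lower, and H1f5, H4c9, H2bc18 and H2bc12 lay 0.71 to 1.30 log2 units higher. H4c8 lay 1.82 higher, again mainly through 1 array. None of the 29 passed the test, while 5 of all genes did (0.0225%). At an unadjusted p under 0.05, 4 members were higher and 1 lower, against 4.54% and 4.06% of all genes. Groups did not overlap in 3 members that were higher and 2 that were lower, against 6.28% and 6.62%. Of the members 20 were positive and 9 negative, where 10303 and 11877 of all 22180 genes were. The median of the members was 0.12, beside -0.02 over all genes. It was 0.25 in H1, 0.16 in H2A, 0.06 in H2B and 0.14 in H4. For the 13 genes above the receptor level it was 0.38, and for the 4 of class H2A among them -0.08.

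**Figure D3:**
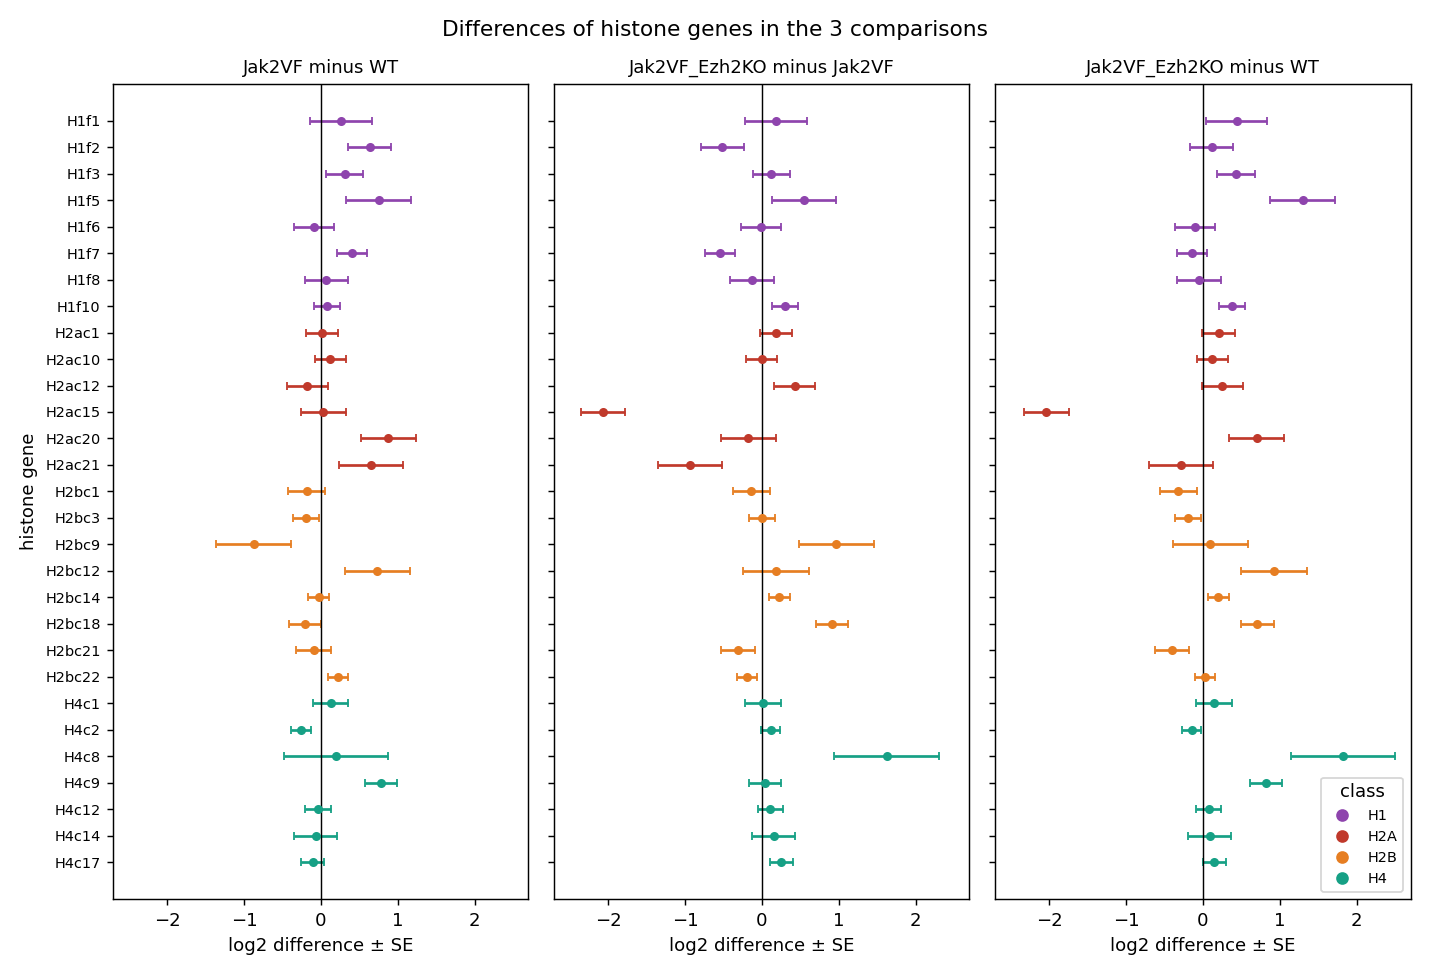
Log2 difference with its standard error from the limma fit (x axis) for each histone gene (y axis, coloured by class) in the 3 comparisons. H2ac15 lies at -2.07 and -2.04 in the comparisons of Jak2VF_Ezh2KO, apart from the other genes, most of which lie within 1 log2 unit of 0.

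The core histone gene H2ac15 (formerly Hist1h2ak) had the largest difference among the members above the receptor level. It measured 9.82, 10.32 and 10.13 on the WT arrays, 10.39, 10.43 and 9.53 on the Jak2VF arrays and 7.71, 7.85 and 8.59 on the Jak2VF_Ezh2KO arrays. WT and Jak2VF overlapped, and all 3 Jak2VF_Ezh2KO arrays lay below both, the nearest at 8.59 and 9.53. The means were 10.09 ± 0.25, 10.12 ± 0.50 and 8.05 ± 0.47 (SD, n = 3). Jak2VF_Ezh2KO differed by -2.07 (SE 0.29) from Jak2VF, 4.19-fold lower (limma adjusted p = 0.0608), and by -2.04 from WT, 4.11-fold lower (limma adjusted p = 0.0810). Neither passed the threshold of 0.05. Over the alternatives with at least 2 arrays behind each group's mean, limma's adjusted p or that of ordinary least squares ran from 0.0215 to 0.490 against Jak2VF and from 0.0345 to 0.571 against WT. Without Jak2VF_Ezh2KO replicate 3 both did, with differences of -2.34 and -2.31 (limma adjusted p = 0.0257 and 0.0353). That replicate is also the array without Y-linked signal, and with it as the only Jak2VF_Ezh2KO array, a choice made after seeing the data, the differences were -1.53 and -1.50. A single array has no spread of its own and is assumed to vary like the other groups, so no p is read from that fit.

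Genes next to H2ac15 on chromosome 13 differed from it in the size or sign of their differences, a contrast that was not tested. H4c12, its nearest neighbour on 1 side, measured 10.92, 10.75 and 10.92 on the WT arrays, 11.11, 10.75 and 10.63 on the Jak2VF arrays and 10.70, 10.97 and 11.14 on the Jak2VF_Ezh2KO arrays, and the groups overlapped (0.11 against Jak2VF and 0.07 against WT). H1f5, the next but 1 on the other side, had differences of 0.55 and 1.30. H2bc14, H2bc22 and H4c17, within 8 genes of H2ac15, differed from Jak2VF by 0.23, -0.20 and 0.25 and from WT by 0.20, 0.03 and 0.15. The olfactory receptor gene Olfr1359, 7 genes away beyond the histone cluster, lay lower as H2ac15 did, with a WT mean of 7.19, a Jak2VF mean of 6.69 and a Jak2VF_Ezh2KO mean of 6.20, and thus differences of -0.49 and -0.99. Its nearest measured neighbours Olfr1360 and Olfr1361 differed from Jak2VF by -0.13 and 0.06, and Olfr11, 10 genes from H2ac15, by -0.34. Olfr1359 belongs to the receptor genes used as a guide to detection, but its group means lay above their 95th percentile of 6.11. Whether the lower values of Olfr1359 and H2ac15 are linked was not tested. The gene directly between H2ac15 and H1f5 is H2bc15, which lies only on shared probe sets. One such probe set, annotated to 4 H2B genes, measured 5.39, 5.27 and 5.38 in Jak2VF and 4.12, 4.42 and 4.30 in Jak2VF_Ezh2KO, with WT at 4.92, 5.13 and 3.87. Jak2VF_Ezh2KO did not overlap Jak2VF but overlapped WT, and the difference of -1.07 did not pass over all probe sets (limma adjusted p = 0.605). The other 2 probe sets annotated to 4 H2B genes with H2bc15 differed by -0.21 and -0.03. The first of them did not overlap either, with its nearest arrays at 12.01 and 12.02, while the second did. Those annotated to 12 H2B symbols with H2bc15 differed by -0.19 and -0.16, with overlap. H2ac15 itself is also among the 12 H2A symbols of a shared probe set that measured 9.40, 10.02 and 9.27 in Jak2VF and 9.46, 9.74 and 9.75 in Jak2VF_Ezh2KO, a difference of 0.09.

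None of the other H2A genes passed the test. H2ac20 measured 6.15, 7.61 and 7.11 on the WT arrays, 7.92, 8.30 and 7.28 on the Jak2VF arrays and 7.45, 7.60 and 7.91 on the Jak2VF_Ezh2KO arrays. The groups overlapped through WT replicate 2, and Jak2VF differed from WT by 0.88 (SE 0.36, limma adjusted p = 0.924). H2ac21 measured 7.90, 9.09 and 8.72 on the WT arrays, 8.80, 9.94 and 8.91 on the Jak2VF arrays and 8.30, 7.62 and 8.94 on the Jak2VF_Ezh2KO arrays. Its groups overlapped as well, with -0.93 (SE 0.42) between Jak2VF_Ezh2KO and Jak2VF (limma adjusted p = 0.725). A second probe set of H2ac21, within the receptor range, differed by -0.27. H2ac10 stayed between 9.16 and 9.90 on all 9 arrays, and H2ac12 and the testis gene H2ac1 lay within the receptor range.

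Among linker histones, H1f5 (formerly Hist1h1b), a replication-dependent H1, had the largest difference. It measured 8.92, 10.33 and 9.37 on the WT arrays, 10.38, 10.95 and 9.53 on the Jak2VF arrays and 10.39, 10.82 and 11.30 on the Jak2VF_Ezh2KO arrays. All Jak2VF_Ezh2KO arrays lay above all WT arrays, the nearest at 10.39 and 10.33, while Jak2VF overlapped both groups. The difference from WT was 1.30 (SE 0.42), 2.46-fold (limma adjusted p = 0.473), and those of Jak2VF from WT and Jak2VF_Ezh2KO from Jak2VF were 0.75 and 0.55. H1f2 (formerly Hist1h1c), a linker histone also made outside S phase, measured 7.23, 7.77 and 7.65 on the WT arrays, 8.31, 8.45 and 7.80 on the Jak2VF arrays and 7.43, 7.28 and 8.29 on the Jak2VF_Ezh2KO arrays. Each Jak2VF array lay above each WT array, by 0.63 (SE 0.28) on average (limma adjusted p = 0.924). Jak2VF_Ezh2KO differed by -0.52 from Jak2VF, but its replicate 3 lay among the Jak2VF arrays. With sex as a covariate the difference was 0.10. The only arrays with Y-linked signal were replicates 1 and 2 of Jak2VF_Ezh2KO, so that value rests on replicate 3 alone and is no separate estimate of the part of sex.

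H1f1, H1f3 and H1f10 had smaller differences. H1f1 differed by 0.26 between Jak2VF and WT and H1f3, within the receptor range, by 0.31. The replication-independent H1f10 measured 5.91, 6.19 and 6.42 on the WT arrays, 6.01, 6.37 and 6.37 on the Jak2VF arrays and 6.37, 6.63 and 6.64 on the Jak2VF_Ezh2KO arrays. Groups overlapped, and Jak2VF_Ezh2KO lay 0.38 (SE 0.17) above WT (limma adjusted p = 0.584). The germline linker genes H1f6, H1f7 and H1f8 ranged from 3.95 to 5.60 over all arrays, and H1f7 lay 0.54 lower in Jak2VF_Ezh2KO than in Jak2VF (limma adjusted p = 0.603).

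Of the H2B genes, H2bc18 (formerly Hist2h2bb), in the chromosome 3 cluster, measured 7.01, 7.34 and 6.89 on the WT arrays, 6.58, 7.31 and 6.74 on the Jak2VF arrays and 7.57, 7.81 and 7.99 on the Jak2VF_Ezh2KO arrays. Every Jak2VF_Ezh2KO array lay above every array of the other groups, and WT and Jak2VF overlapped. The differences were 0.91 (SE 0.21) from Jak2VF, 1.88-fold (limma adjusted p = 0.317), and 0.71 from WT (limma adjusted p = 0.457). H2bc12 measured 5.80, 6.56 and 5.57 on the WT arrays, 6.71, 7.49 and 5.94 on the Jak2VF arrays and 6.81, 6.32 and 7.57 on the Jak2VF_Ezh2KO arrays. Its groups overlapped, with 0.74 between Jak2VF and WT and 0.92 between Jak2VF_Ezh2KO and WT (limma adjusted p = 0.592). H2bc9, within the receptor range on average, measured 5.50, 5.73 and 4.93 on the WT arrays, 3.91, 5.35 and 4.28 on the Jak2VF arrays and 4.72, 5.14 and 6.57 on the Jak2VF_Ezh2KO arrays, so its -0.87 and 0.96 rest on spread within the groups of up to 0.97 (SD).

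H2bc3 stayed between 7.63 and 8.28 on all arrays. H2bc21, within the receptor range, lay lower on all Jak2VF_Ezh2KO arrays than on all WT arrays, with a difference of -0.40 (limma adjusted p = 0.652). H2bc14 and H2bc22 differed by at most 0.23 in size in any comparison. The testis gene H2bc1 measured between 1.77 and 2.79, within the receptor range.

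Of the H4 genes, H4c9 (formerly Hist1h4i) measured 6.36, 6.78 and 7.06 on the WT arrays, 7.28, 7.75 and 7.51 on the Jak2VF arrays and 7.34, 7.77 and 7.55 on the Jak2VF_Ezh2KO arrays. All 6 arrays with mutant Jak2 lay above the 3 WT arrays, and those with and without Ezh2 loss overlapped. The differences from WT were 0.78 (SE 0.20), 1.72-fold, in Jak2VF (limma adjusted p = 0.924) and 0.82 in Jak2VF_Ezh2KO (limma adjusted p = 0.386), and the difference between both mutant groups was 0.04. H4c8 (formerly Hist1h4h) measured 3.56, 5.09 and 4.18 on the WT arrays, 4.17, 5.20 and 4.06 on the Jak2VF arrays and 4.89, 7.82 and 5.58 on the Jak2VF_Ezh2KO arrays. Jak2VF_Ezh2KO replicate 2 stood above the rest and the groups overlapped, with differences of 1.62 (SE 0.68) from Jak2VF and 1.82 from WT (limma adjusted p = 0.700 and 0.531). A shared probe set of 6 H4 symbols that include H4c8 was also highest in that replicate, at 8.31, beside 6.42 and 7.41 in the other 2. H4c2, within the receptor range at 2.56 to 3.06, lay lower on every Jak2VF array than on every WT array, with a difference of -0.26. H4c17 differed by 0.25 between Jak2VF_Ezh2KO and Jak2VF, and H4c1 and H4c14 by 0.02 and 0.15.

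**Figure D4:**
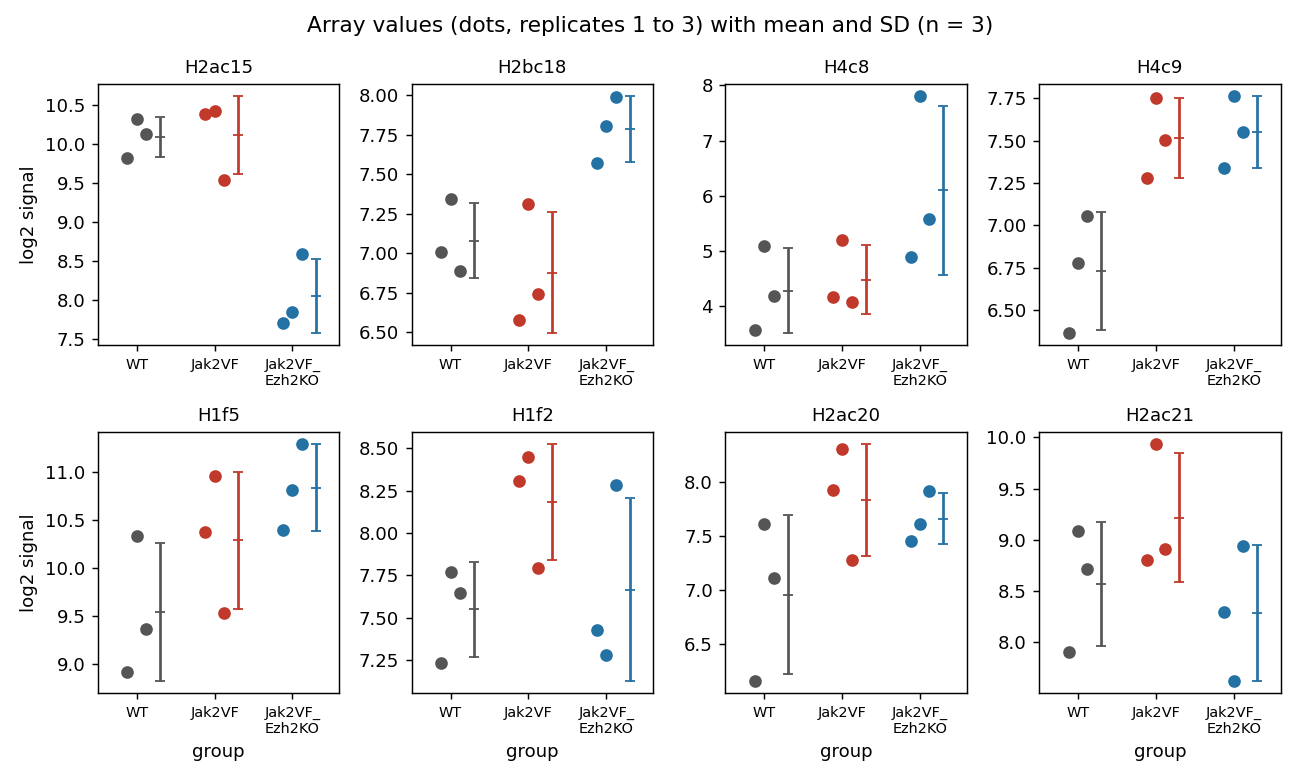
Log2 signal on each array (dots, in replicate order from left to right within a group) with the group mean and SD (bars, n = 3) for 8 histone genes; each panel has its own y axis, which does not start at 0. H2ac15 separates Jak2VF_Ezh2KO from both other groups downwards and H2bc18 upwards, and H4c9 separates WT from both mutant groups.

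The shared probe sets brought in class H3. There were 38, of which 35 held distinct values, and they were tested among all 41345 probe sets. None passed in any comparison (limma, smallest adjusted p = 0.973, 0.605 and 0.520; 0% of all probe sets in each). In Jak2VF against WT 2 were higher and 1 lower at an unadjusted p under 0.05, against 2.1% and 1.93% of all probe sets. In Jak2VF_Ezh2KO against Jak2VF 0 were higher and 2 lower, against 3.46% and 3.32%. In Jak2VF_Ezh2KO against WT 1 was higher and 0 lower, against 4.45% and 4.24%. Their median differences were 0.20, 0.04 and 0.29, where those of all probe sets were 0.0049, -0.03 and -0.02. For the 12 H3 probe sets the medians were 0.23 (9 positive), -0.08 (5 positive) and 0.17 (8 positive). The H3 probe set with the smallest p was dim and measured 2.35, 2.56 and 2.39 on the WT arrays, 3.65, 4.14 and 2.69 on the Jak2VF arrays and 2.34, 3.11 and 2.22 on the Jak2VF_Ezh2KO arrays. Jak2VF lay above WT on every array there, and the difference of 1.06 did not pass (limma adjusted p = 0.973).

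Within WT and Jak2VF, the H1 and H2A genes varied from array to array in the order that cell cycle genes did. This order was not particular to cell cycle genes. Relative to the WT mean, the 4 H1 genes above the receptor level averaged -0.46, 0.46 and 0.01 on the WT arrays, 0.43, 0.84 and 0.02 on the Jak2VF arrays and 0.28, 0.42 and 0.98 on the Jak2VF_Ezh2KO arrays. The 4 H2A genes averaged -0.45, 0.41 and 0.04 on the WT arrays, 0.40, 0.89 and -0.03 on the Jak2VF arrays and -0.56, -0.57 and -0.00076 on the Jak2VF_Ezh2KO arrays. The 24 S phase genes averaged -0.32, 0.28 and 0.04 on the WT arrays, 0.15, 0.60 and 0.0014 on the Jak2VF arrays and 0.11, -0.07 and 0.08 on the Jak2VF_Ezh2KO arrays. WT replicate 1 was thus lowest and WT replicate 2 highest of the WT arrays in all 3 sets, and Jak2VF replicate 2 highest of the Jak2VF arrays. The 21 histone chaperone genes had that order too, at -0.18, 0.20 and -0.03 in WT and 0.07, 0.35 and 0.05 in Jak2VF. The olfactory and vomeronasal receptor genes averaged 4.22, 3.87 and 4.32 on the WT arrays and 4.31, 3.83 and 3.92 on the Jak2VF arrays. They were thus lowest on replicate 2 of both groups. The low H2A values in Jak2VF_Ezh2KO came from H2ac15: without it the other 3 H2A genes averaged 0.05, -0.01 and 0.50 there, and 0.43, 1.07 and 0.14 in Jak2VF. The H1 genes were highest in Jak2VF_Ezh2KO replicate 3, whereas S phase genes stayed within 0.11 of the WT mean in that group. The 3 H2B genes averaged 0.39, 0.22 and 0.83 there and the 2 H4 genes 0.22, 0.57 and 0.55. The part of cell cycle state in the histone values was not tested, nor was that of signal differences between whole arrays. In bulk samples, fewer cells in S phase and less histone mRNA per cell cannot be told apart.

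**Figure D5:**
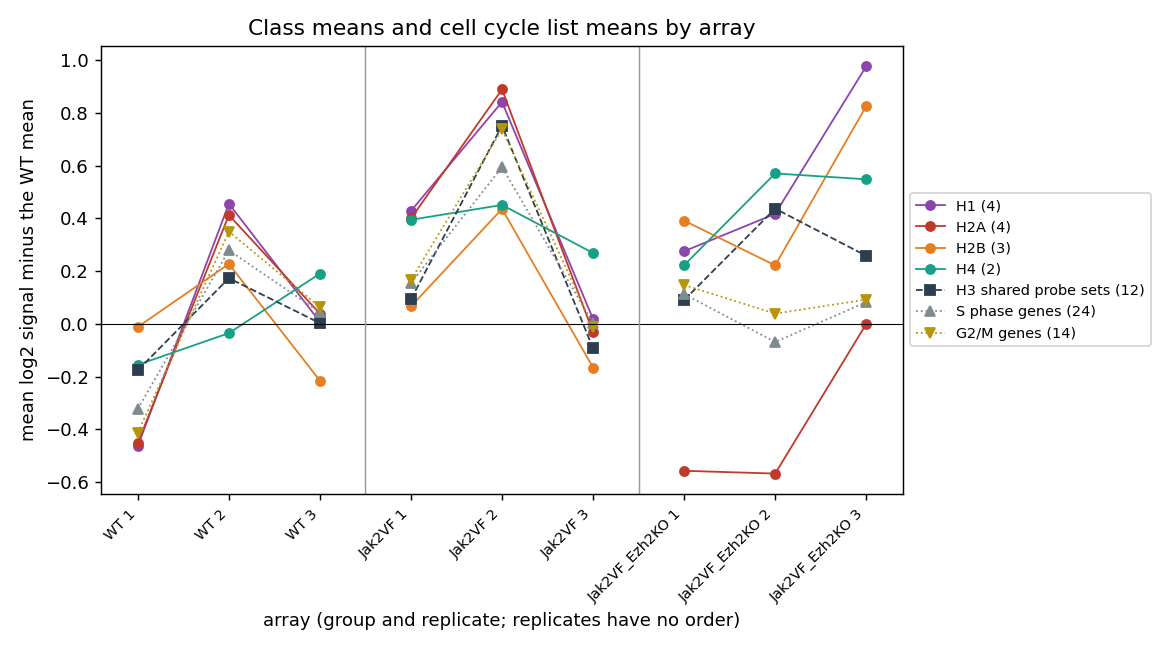
Mean log2 signal relative to the WT mean (y axis) on each of the 9 arrays (x axis) for the histone genes above the receptor level by class, the 12 shared H3 probe sets, and S phase and G2/M genes, with the number of genes or probe sets in brackets; lines only join points of a set. Within WT and Jak2VF most sets rise and dip on the same arrays, and in Jak2VF_Ezh2KO class H1 reaches 0.98 while S phase genes stay within 0.11 of the WT mean.

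Genes of the histone supply chain were described beside them, from lists of which no member passed the test. Of 17 genes for histone transcription and mRNA processing, 16 were measured. Npat, the histone gene coactivator, measured 7.01, 7.55 and 7.22 on the WT arrays, 7.46, 7.64 and 7.45 on the Jak2VF arrays and 7.38, 7.21 and 7.38 on the Jak2VF_Ezh2KO arrays, and Slbp differed by at most 0.06 in size in any comparison. The list's medians were 0.11, -0.08 and 0.05 for Jak2VF against WT, Jak2VF_Ezh2KO against Jak2VF and Jak2VF_Ezh2KO against WT. Lsm10, a subunit of the U7 snRNP that processes the 3' end of histone mRNA, lay 0.57 higher in Jak2VF and 0.74 higher in Jak2VF_Ezh2KO than in WT (limma adjusted p = 0.924 and 0.460). Cpsf2, a subunit of the cleavage machinery, differed by -0.44 between Jak2VF_Ezh2KO and Jak2VF (limma adjusted p = 0.575), and Cstf2, a further subunit, by -0.33.

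Of 23 histone chaperone genes, 21 were measured, with medians of 0.16, -0.22 and -0.01. Of these, 19 were positive in Jak2VF against WT and 19 negative in Jak2VF_Ezh2KO against Jak2VF, 2 comparisons that share the Jak2VF arrays. Of all 22180 genes, 12377 were positive in the first of these comparisons and 12904 negative in the second. Anp32e, which removes H2A.Z from chromatin, differed by -0.80 from Jak2VF and by -0.64 from WT (limma adjusted p = 0.340 and 0.457), and Atrx, which deposits H3.3 with Daxx, by -0.32 and -0.28. Hira, the other H3.3 chaperone, lay 0.42 higher in Jak2VF than in WT (limma adjusted p = 0.924). Of 11 further histone genes outside the naming rule, most of them replacement variants, 8 were measured, with medians of 0.31, 0.12 and 0.37. H2az1 lay 0.68 higher in Jak2VF than in WT, Macroh2a1 differed by -0.35 between Jak2VF_Ezh2KO and Jak2VF, and Cenpa, the centromeric H3, and H2aj lay 0.54 and 0.52 higher in Jak2VF_Ezh2KO than in WT (limma adjusted p = 0.504 and 0.574).

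Of the cell cycle lists, 24 of 26 S phase genes were measured, with medians of 0.25 (23 positive), -0.29 (21 negative) and 0.03. Of all 22180 genes, 12377 were positive in Jak2VF against WT and 12904 negative in Jak2VF_Ezh2KO against Jak2VF. Tyms, which makes dTMP, lay 0.38 higher in Jak2VF than in WT, the replication gene Cdk2 and Uhrf1, which maintains DNA methylation, differed by -0.41 and -0.55 from Jak2VF, and Rrm2, of ribonucleotide reductase, lay 0.75 above WT in Jak2VF_Ezh2KO (limma adjusted p = 0.441). The 14 of 15 G2/M genes measured had medians of 0.33, -0.18 and 0.04. Kif11, a spindle motor, lay 0.47 higher in Jak2VF than in WT and differed by -0.70 between Jak2VF_Ezh2KO and Jak2VF (limma adjusted p = 0.634). Birc5, of the chromosomal passenger complex, lay 0.41 higher in Jak2VF than in WT, Top2a, a topoisomerase, differed by -0.46 between Jak2VF_Ezh2KO and Jak2VF, and the mitotic kinases Cdk1 and Plk1 lay 0.59 and 0.53 higher in Jak2VF_Ezh2KO than in WT.

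Markers of other blood cells and of stem cells also differed between the groups. The 7 mast cell and basophil genes averaged 5.04 to 5.36 in WT, 5.73 to 6.31 in Jak2VF and 6.30 to 6.67 in Jak2VF_Ezh2KO. Cma1, a mast cell protease, rose by 1.63 against Jak2VF and by 1.67 against WT (limma adjusted p = 0.0441 and 0.0459). Of the 7, all were positive against WT, while 5 were positive and 2 negative against Jak2VF. The negative ones were Fcer1a (-0.31) and Ms4a2 (-0.35). The 7 megakaryocyte genes averaged 7.19 to 7.44 in WT, 7.44 to 8.06 in Jak2VF and 6.84 to 7.19 in Jak2VF_Ezh2KO, and Itga2b, an integrin of megakaryocytes, fell by 1.45 against Jak2VF (limma adjusted p = 0.0441). The 7 B cell and 9 neutrophil genes reached 7.08 and 6.99 in Jak2VF_Ezh2KO replicate 3, against at most 6.15 and 6.23 on the other arrays. The mean of the 4 H1 genes above the receptor level was also highest in this replicate, whereas that of all 8 H1 genes was highest in Jak2VF replicate 2. The 8 T and NK cell genes averaged 5.73 to 6.07 in WT, 5.86 to 6.02 in Jak2VF and 6.37 to 6.64 in Jak2VF_Ezh2KO, where no array overlapped the other groups. Of them, 3 were higher against both at an unadjusted p under 0.05, where 2.91% (against Jak2VF) and 4.54% (against WT) of all genes were. These were Klrd1 (by 1.69 against Jak2VF), Ccl5 (by 1.77) and Gzmb, which is also on the mast cell list (by 0.84). Nkg7 went the other way, with -0.75 against Jak2VF, also at an unadjusted p under 0.05, where 3.99% of all genes were lower. Of the 8 genes, 0 passed the test. The 9 stem cell genes averaged 7.50 to 7.54 in WT, 7.18 to 7.28 in Jak2VF and 7.28 to 7.42 in Jak2VF_Ezh2KO. Of these 9, 4 lay lower on every Jak2VF array than on every WT array, against 2.57% of all genes. They were Procr, Mecom, Mllt3 and Hlf, with differences of -0.64, -0.71, -0.56 and -0.40 (limma adjusted p = 0.868, 0.863, 0.868 and 0.924). Hoxb5 lay 0.16 higher, and Slamf1 and Meis1 differed by -0.02 and -0.05. Between Jak2VF_Ezh2KO and Jak2VF, 6 were positive and 3 negative, with Procr at 0.90 (limma adjusted p = 0.0941). The 5 erythroid genes measured were all higher in Jak2VF_Ezh2KO than in WT, with a median of 0.68, where 10303 of all 22180 genes were higher. The part of these markers in the histone values was not tested.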

How the data were processed

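The authors deposited log2 expression values of 41345 probe sets on 9 arrays. The submitters' processing notes name Partek 6.6; background correction, normalization, array build and scale details are not stated there. Per the labels' protocols, 10 ng of RNA per sample was amplified. No normalization was added, and 0 columns belonged to other samples.

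Of the probe sets, 23521 had 1 symbol, 1814 several and 16010 none. For the 1082 genes with more than 1 probe set, that with the highest mean over 9 arrays was kept, leaving 22180 genes. limma 3.58.1 in R 4.3.3 (lmFit, eBayes without trend) fitted all 9 arrays with 6 residual and 3.83 prior degrees of freedom. Benjamini-Hochberg adjustment ran over all genes of a comparison, and adjusted p-values are limma's, with a threshold of 0.05. The fit was tested on simulated data. With 3 arrays per group the number of arrays limits the precision.

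The members, lists and tests were chosen with earlier results of these data known. Named were, per comparison, members with an unadjusted p under 0.05, filled up to 10 by smallest p, the 2 members of each related list with the smallest p, germline and replication-independent members, Ezh2 and Jak2. Neighbours of H2ac15, the cell markers, Olfr1359 to Olfr1361, Npat, Slbp, the sort markers, H1f1, H2ac10, H2ac12, H2bc3, H4c1, H4c12 and H4c14 were added after their values were seen. Replicate numbers were not used to pair the arrays in the main fit. Same-numbered arrays of different groups correlated between -0.23 and 0.48 in their deviations from the group means, and other arrays between -0.50 and 0.33. These values do not settle whether the numbers pair the arrays. Alternatives covered the variance model, scaling, a filter on dim genes, probe set choice, groups in the fit, weights, a replicate block, sex, each array left out and the threshold.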

Additional observations from a re-analysis of the deposited data

How the results depend on the processing

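H2ac15 kept its sign under all 21 alternatives, from -2.36 to -1.53 against Jak2VF and from -2.31 to -1.50 against WT. Against Jak2VF the count of histone genes that passed was 1 (H2ac15, in place of 0) with an intensity trend and robust variance (limma adjusted p = 0.0349), quantile normalization (0.0475), dimmer genes left out (0.0215) or a threshold of 0.1, and 0 to 1 with each array left out in turn. Against WT it was 1 with the trend (0.0486), dimmer genes left out (0.0345) or a threshold of 0.1, and 0 to 1 with each array left out. Its adjusted p ran up to 0.490 and 0.571, with ordinary least squares; the fit without both Y-linked arrays (0.775 and 0.704) and that with sex as a covariate (0.530 and 0.494) rest on 1 Jak2VF_Ezh2KO array, which is assumed to vary like the rest, and show nothing about stability. With dimmer genes left out, fewer genes were tested.

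Histone genes at an unadjusted p under 0.05 numbered 3 in Jak2VF against WT (1 to 5 with each array left out). Against Jak2VF they numbered 5, but 3 with ordinary least squares, dimmer genes left out, the 2 groups alone or both Y-linked arrays left out, and 2 to 6 with each array left out. In Jak2VF_Ezh2KO against WT they numbered 5 (3 to 8 with each array left out, 8 without WT replicate 2). The median of the histone genes moved with dimmer genes left out to 0.26 in Jak2VF against WT and 0.38 in Jak2VF_Ezh2KO against WT. H1f2 reversed to 0.10 against Jak2VF with sex as a covariate and without both arrays with Y-linked signal. Both fits rest on Jak2VF_Ezh2KO replicate 3 alone for that group and show nothing about stability.

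Over all genes, 10 passed against Jak2VF: 0 with ordinary least squares, the 2 groups alone, without both Y-linked arrays or with the replicate block, 4 with median centring, 19 with dimmer genes left out, 23 at 0.1, and 0 to 17 with each array left out. Against WT 5 passed: 10 with the trend, 0 with ordinary least squares, the 2 groups alone, without both Y-linked arrays or with the replicate block, 3 with median centring or every probe set, 14 with array weights, 13 at 0.1, and 0 to 14 with each array left out. The arrays share only a replicate number, and the block changed no call of a histone gene. The cause of these moves was not tested. Of the single-gene values, 609 kept direction and side of the threshold, 7 passed newly (H2ac15) and 2 reversed (H1f2). Both reversals rest on Jak2VF_Ezh2KO replicate 3 alone for that group. Depth cannot be judged from these arrays, and 16 of 29 genes lay within the receptor range.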
